A study of Mus musculus with 4 samples.

Results

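The glutathione S-transferase genes Gsta1, Gsta2, Gsta4, Gstp1, Gstm1, Gstm5, Gsto1, Mgst1 and Mgst3 were followed across the cell types of the adult stria vascularis (SV), the epithelium of the lateral wall of the cochlea. They are 9 of the 27873 genes counted in all 4 libraries, and each was found there by its symbol. The 9 genes were chosen by their levels in these same libraries, across intermediate cells, barcodes low in Malat1, other types and nuclei. Their levels below are therefore a description, and no p-value is attached to them. All libraries came from CBA/J mice at postnatal day 30, and the labels name no treatment or genotype. There were 3 captures of whole cells (scRNA-Seq), each a pooled suspension of SV from about 12 animals by the sample labels (the study's supplement gives fewer animals for each, so the size of the pools is uncertain), and 1 capture of nuclei (snRNA-Seq) pooled from about 10 animals. A capture was therefore the replicate, and the nucleus capture has none.

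These enzymes join glutathione, a tripeptide, to reactive molecules so that the cell can dispose of them. Gsta1, Gsta2 and Gsta4 are alpha class, Gstm1 and Gstm5 mu class, Gstp1 pi class and Gsto1 omega class, all soluble, whereas Mgst1 and Mgst3 sit in membranes. Gsta4 has a preference for hydroxynonenal, a product of lipid peroxidation, and many genes of the family respond to the transcription factor Nrf2. In the SV, marginal cells secrete potassium into the endolymph, intermediate cells are melanocytes that carry the channel behind the endocochlear potential, basal cells seal the layer towards the spiral ligament, and spindle and root cells lie at its edges.

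On mm10 with the GENCODE vM21 annotation, the alpha genes lie together on chromosome 9, with Gsta4 at chr9:78182774-78209349 (+), Gsta1 at chr9:78230656-78242684 (+) and Gsta2 at chr9:78331018-78355788 (-). Gstm5 at chr3:107895821-107898686 (+) and Gstm1 at chr3:108012255-108017973 (-) are neighbours on chromosome 3. Gstp1 at chr19:4035407-4037985 (-) and Gsto1 at chr19:47854970-47864790 (+) share chromosome 19, Mgst1 is at chr6:138140316-138156755 (+) and Mgst3 at chr1:167371966-167393841 (-). All are protein-coding. Gstm5 overlaps the antisense gene 4933431E20Rik and Gsto1 overlaps Cfap43 on the other strand. The study's methods name Cell Ranger with its defaults, which count reads in the sense direction, and no other strand setting is given.

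RefSeq promoter windows (GRCm38.p6, 250 bases before to 50 after the start of transcription) were at hand for 8 members and not for Gsta4. The RefSeq start sites are not always the ends of the genes given above. The whole Gsta2 window lies inside the GENCODE bounds of that gene, and so does most of the Mgst1 window. Gsta1 and Gsta2 are shown because their RNAs went together in the data. Capitals mark the runs of at least 18 bases that both windows hold, 78 of the bases of each, in runs of 29, 26 and 23 bases.
Gsta1, chr9:78230419-78230718: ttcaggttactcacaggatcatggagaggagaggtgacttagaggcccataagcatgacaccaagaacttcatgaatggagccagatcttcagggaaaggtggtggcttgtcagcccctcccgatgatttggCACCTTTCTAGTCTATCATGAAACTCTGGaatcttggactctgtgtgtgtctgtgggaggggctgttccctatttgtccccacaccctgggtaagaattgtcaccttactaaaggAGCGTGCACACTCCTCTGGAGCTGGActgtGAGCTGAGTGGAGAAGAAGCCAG
Gsta2, chr9:78347096-78347395: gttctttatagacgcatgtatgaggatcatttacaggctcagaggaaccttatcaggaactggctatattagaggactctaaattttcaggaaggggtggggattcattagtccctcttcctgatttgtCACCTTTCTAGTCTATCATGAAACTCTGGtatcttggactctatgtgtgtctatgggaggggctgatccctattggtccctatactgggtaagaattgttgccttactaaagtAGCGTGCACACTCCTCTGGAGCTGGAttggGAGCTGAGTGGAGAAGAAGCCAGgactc

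The core of the antioxidant response element, TGACNNNGC, to which Nrf2 binds, was searched on both strands, and 12.4% of 32851 promoter windows held it. Of the 10 windows of members, those of Gstm5 and Mgst1 held it, and they are shown with the match in capitals. The matches lie 42 and 56 bases before the RefSeq start site, and in Mgst1 on the reverse strand. The windows of Gsta1 and Gsta2 did not hold these letters. Start sites other than those of RefSeq were not searched. Gsta4 had no window and was not searched.
Gstm5, chr3:107895604-107895903: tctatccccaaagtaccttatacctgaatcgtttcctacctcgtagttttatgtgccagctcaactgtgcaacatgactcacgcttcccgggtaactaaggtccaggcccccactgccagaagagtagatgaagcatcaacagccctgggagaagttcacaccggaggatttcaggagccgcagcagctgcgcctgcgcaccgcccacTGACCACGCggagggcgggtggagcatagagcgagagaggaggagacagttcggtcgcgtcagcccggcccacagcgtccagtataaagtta
Mgst1, chr6:138140277-138140576: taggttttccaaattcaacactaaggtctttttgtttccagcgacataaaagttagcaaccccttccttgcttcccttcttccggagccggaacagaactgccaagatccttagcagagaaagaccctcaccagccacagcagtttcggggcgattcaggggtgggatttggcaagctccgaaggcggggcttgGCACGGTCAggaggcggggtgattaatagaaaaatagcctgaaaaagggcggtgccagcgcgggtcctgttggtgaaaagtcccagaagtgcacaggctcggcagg

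Near-identical sequence also limits what the counts of some members can say. Over the last 500 bases of the longest coding transcript, from which reads of such libraries come, 95 of 441 windows of 60 bases in Gsta1 (21.5%) also occur in Gsta2, and as many the other way. In Gstp1, 319 of the 441 windows (72.3%) occur in Gstp2 and 253 in the pseudogene Gstp-ps, so its counts are uncertain. No window of Gsta4, Gstm1, Gstm5, Gsto1, Mgst1 or Mgst3 was found in another family gene.

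The cell captures held 392, 1358 and 1580 barcodes with 2811309, 8113494 and 8340882 unique molecular identifiers (UMIs, each counting 1 captured RNA molecule), and the nucleus capture 11057 barcodes with 22332501. Type names are given from markers and stand for cells that are like that type. They cover 905 intermediate, 110 marginal, 109 basal and 34 spindle/root cells, and 1470, 2616, 527 and 194 nuclei. Malat1 is a long noncoding RNA kept in the nucleus, and barcodes in which it made up under 0.7% of UMIs were held apart from the types. Clusters named for a blood type were left out of this group, but unnamed clusters with myeloid markers were not. The low-Malat1 barcodes were then 199 of 377, 644 of 1314 and 698 of 1461 cell barcodes kept, and 3343 of 9723 in the nucleus capture. Mitochondrial RNA was 56.2% of the UMIs of these barcodes in cells, against 34.4% in intermediate and 26.8% in marginal cells. Levels are therefore given as UMIs per 1000000 UMIs of the group (CPM), and where stated as UMIs per 1000000 UMIs that are not mitochondrial (non-mitochondrial CPM). Dct, a melanin synthesis gene, and Kcne1, a potassium channel subunit of marginal cells, were among the markers used for naming. Their levels therefore describe the clusters and do not check the names. Dct averaged 15352 and 32103 CPM in the clusters of intermediate cells and 314 to 7589 CPM in those of marginal cells. Kcne1 averaged 869 to 2586 CPM in the clusters of marginal cells against 31.4 and 63.1 CPM in those of intermediate cells. The captures of cells shared 0 to 6 barcodes with each other and 7 to 32 with the nucleus capture.

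Intermediate cells held the most RNA of the family among the 4 main types. The 9 genes together took 3598, 3605 and 2718 CPM in intermediate cells of captures 1, 2 and 3, against 1626, 1445 and 1276 CPM in basal cells and 988, 954 and 1019 CPM in marginal cells. Spindle/root cells, counted in captures 2 and 3 only, had 921 and 476 CPM. These groups of cells did not overlap. In the nucleus capture, the 9 genes had 2192 CPM (counting interval 2134 to 2251) in intermediate and 1869 CPM (1780 to 1961) in basal nuclei. These intervals did not overlap. In non-mitochondrial CPM the 9 genes had 2371 in intermediate and 2336 in basal nuclei, with overlapping counting intervals. On that scale they averaged 4984 in intermediate and 1914 in basal cells. Gsta4 alone made up 75.2% of the family's UMIs in intermediate cells, 72.1% in marginal and 67.7% in basal cells, but 39.1% in spindle/root cells, where Mgst1 made up 38.2%.

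Gsta4 stood at 2586, 2795 and 2000.5 CPM in the intermediate cells of the 3 captures. In basal cells it stood at 1114, 983 and 844 CPM, in marginal cells at 707, 686 and 739 CPM, and in spindle/root cells of captures 2 and 3 at 400 and 123 CPM. Each type was clear of the next in this order, and the order was the same in non-mitochondrial CPM. With scaling for composition (edgeR, trimmed mean of M values), Gsta4 was higher in intermediate cells than in the mean of the other 3 types by 2.38 on the log2 scale (SE 0.10), above 99.0% of 8479 genes fitted. Without that scaling the value was 2.05, since the scaling moves the median of all genes from -0.30 to 0.02.

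Gsta1 and Gsta2 were also highest in intermediate cells, at lower levels, with basal and marginal cells level with each other. Gsta1 stood at 374, 309 and 292 CPM in intermediate cells, and its mean over captures was 86.7 CPM ± 24.6 (SD, n = 3) in basal and 77.1 CPM ± 10.9 (n = 3) in marginal cells. Gsta2 stood at 315, 281 and 246 CPM in intermediate cells, against 70.7 CPM ± 12.7 in basal and 71.6 CPM ± 21.5 in marginal cells. For both genes basal and marginal cells overlapped, and no capture of either type reached the lowest intermediate value. The log2 fold was 2.69 (SE 0.14) for Gsta1 and 2.75 (SE 0.15) for Gsta2. It stayed between 2.36 and 3.40 for the first and between 2.43 and 2.95 for the second under all 19 other settings. Not all of these could move it. A limit of at least 10 barcodes per sum changed no sum, and some settings changed only the low-Malat1 barcodes. Spindle/root cells had 10 and 8 UMIs of these genes over captures 2 and 3 together, in 30 cells. Fibrocytes, 35 connective tissue cells of the lateral wall with 34 of them in captures 2 and 3, had 1 UMI of Gsta1 and 0 of Gsta2 there. This allows Gsta2 up to 30.1 and 26.3 CPM in fibrocytes of captures 2 and 3 (3 counts, counting error only).

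Gstp1 had its highest mean in intermediate cells, but capture 1 set it, and intermediate, low-Malat1 and basal barcodes overlapped in turn. It stood at 115 CPM there in capture 1 and at 29.1 and 29.7 CPM in captures 2 and 3. The same capture was highest in basal cells, with 46.3 CPM against 10.2 and 9.45 CPM. Within each capture basal cells were thus below intermediate cells, although the ranges over captures overlapped. Without capture 1 the intermediate mean was 29.4 CPM in place of 57.8 CPM. Fibrocytes, counted in captures 2 and 3 only, had a mean of 44.5 CPM ± 48.7 (n = 2), from 10.0 to 78.9 CPM, on 10 UMIs. Marginal cells held 7 UMIs of Gstp1 in all. Its log2 fold was 2.10 (SE 0.27), with 1.77 to 2.43 under the other settings.

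**Figure D1:**
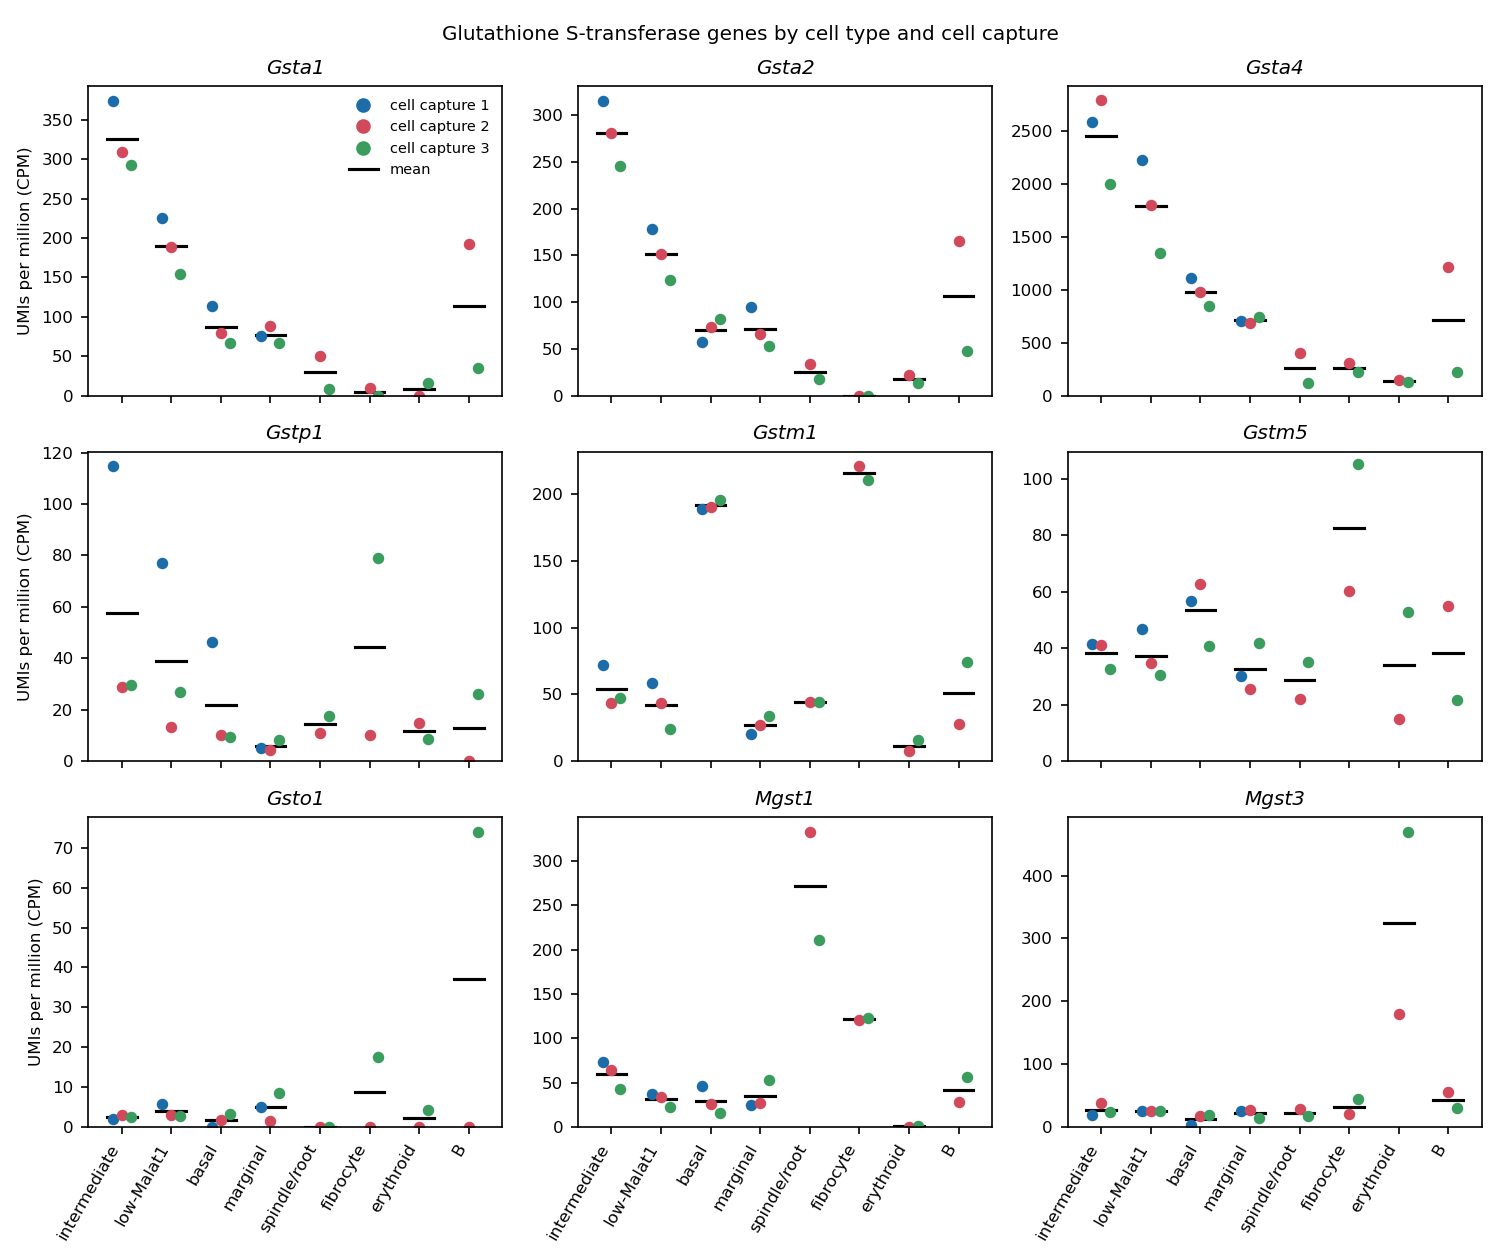
CPM of each member (vertical axis, linear from 0, scaled per gene) in 8 groups of barcodes of the cell captures. Points are captures and bars their means; spindle/root cells, fibrocytes, erythroid and B cells have 2 captures each. Gsta1, Gsta2 and Gsta4 are highest in intermediate cells, Gstm1 stands at 189 to 195 CPM in basal cells, Mgst1 is highest in spindle/root cells and Mgst3 in erythroid cells.

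The mu class and the membrane members were distributed otherwise. Gstm1 stood at 189, 191 and 195 CPM in basal cells, against 72.0, 43.8 and 47.5 CPM in intermediate and 20.1, 27.1 and 33.6 CPM in marginal cells. Fibrocytes had 221 and 210 CPM in captures 2 and 3, so that basal cells and fibrocytes stood apart from every capture of the other types. Gstm5 was low in the SV types, with means of 53.6 CPM ± 11.4 in basal, 38.4 CPM ± 5.00 in intermediate and 32.6 CPM ± 8.48 in marginal cells, and neighbours in this order overlapped. Fibrocytes had a higher mean of 82.8 CPM ± 31.8 (n = 2), on 18 UMIs. The intermediate log2 fold was 0.03 (SE 0.19) for Gstm1, which turned negative under 8 of 19 other settings, and 0.39 (SE 0.22) for Gstm5. For Mgst1, below, it was 0.16 (SE 0.16), and -0.17 without scaling for composition.

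Mgst1, found in the endoplasmic reticulum and the outer mitochondrial membrane, was highest in spindle/root cells, at 333 and 211 CPM in captures 2 and 3. Intermediate cells had 73.0, 64.7 and 42.9 CPM and marginal cells 25.1, 27.1 and 53.2 CPM, and these overlapped. Fibrocytes lay between spindle/root and intermediate cells, with a mean of 122 CPM ± 1.52 (n = 2) on 26 UMIs. After each barcode was thinned to 1000 UMIs, 23.5% of 34 spindle/root cells (exact 95% interval 10.7 to 41.2%) held a UMI of Mgst1, against 6.52% of 905 intermediate cells (5.00 to 8.33%). No UMI was seen in 100 erythroid cells, and a count of 0 allows up to 3% of cells with a UMI at this depth (3 counts), which sets no limit on cells that express the gene. Without thinning the shares were 64.7%, 30.1% and 1%, at median depths of 7932.5, 6017 and 10126 UMIs. Thinning was on all UMIs, of which mitochondrial RNA made up 15.9% in spindle/root and 34.4% in intermediate cells. In the nuclei the order was led by neutrophils. Their 73 nuclei held 117 UMIs of Mgst1, 615 CPM (exact 95% Poisson interval 509 to 737), and spindle/root nuclei 158 CPM (119 to 207), against 41.8 CPM (34.2 to 50.7) in intermediate and 24.5 CPM (20.1 to 29.5) in marginal nuclei. Such intervals cover counting error only.

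Mgst3 was highest in erythroid cells, at 180 and 470 CPM in captures 2 and 3. Every other type had at most 65.2 CPM in any capture, the intermediate cells 19.3, 38.0 and 24.2 CPM among them. Erythroid nuclei held 547 UMIs of Mgst3, 206 CPM (189 to 224), in the same place at the head of the nuclei. Its intermediate log2 fold against the other SV types was 0.91 (SE 0.25), on 174 UMIs in intermediate cells and 17, 28 and 7 in basal, marginal and spindle/root cells. Without scaling for composition the fold was 0.59. These groups differ in size, and the means were 27.1 CPM in intermediate, 22.7 in spindle/root, 22.1 in marginal and 13.2 in basal cells. Neighbours in this order overlapped. Gsto1, whose enzyme reduces dehydroascorbate, gave 16 UMIs in intermediate, 5 in marginal and 2 in basal cells and did not pass the filter on low counts. B cells of capture 3 held it at 74.0 CPM, and the 5 B cells of capture 2 had no UMI. The 203 B nuclei held it at 4.96 CPM (0.601 to 17.9), on 2 UMIs. An unnamed myeloid cluster of 74 nuclei held it at 59.4 CPM (31.6 to 102).

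Genes typical of intermediate cells were also counted in barcodes of other types, and the alpha genes are set beside them here. A total of 81 genes were at least 20 times higher in intermediate than in marginal nuclei, and in marginal cells their median level was 29.5% of that in intermediate cells (quartiles 23.1 and 35.6%). The members stood at 25.9% for Gsta4, 23.0% for Gsta1 and 22.1% for Gsta2, within or just under these quartiles. In basal cells the median of these genes was 39.4% (30.8 to 57.7%), with Gsta4 at 34.7% and Gsta1 at 23.4%, whereas Gstm1 was at 333%. In erythroid cells it was 1.17%, with Gsta4 at 3.76%. Among the clusters of marginal cells Gsta4 was lower where Dct was lower. Gsta4 stood at 904 CPM ± 84.3 with Dct at 7589 CPM, at 458 CPM ± 98.7 (n = 2) with Dct at 1723 CPM, and at 274 CPM ± 28.5 with Dct at 314 CPM. Dct thus differed more between these clusters than Gsta4 did. The last cluster of 29 cells gave 3 UMIs of Gsta1. The part of RNA from intermediate cells in the marginal values was not tested.

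In the nuclei the same 81 genes stood at 2.49% in marginal nuclei, and Gsta4 at 23.4% and Gsta2 at 14.6%. Basal nuclei had a median of 18.3% (12.8 to 36.5%) and Gsta4 at 102%, Gsta1 at 83.4% and Gsta2 at 64.7%. Erythroid nuclei had a median of 1.43% and Gsta4 at 9.88%. In marginal nuclei the low share of the 81 genes was set by how they were chosen, so nothing is read from it there. In basal and erythroid nuclei, of a single capture, the shares of the alpha genes named lay above the median of the 81 genes.

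**Figure D2:**
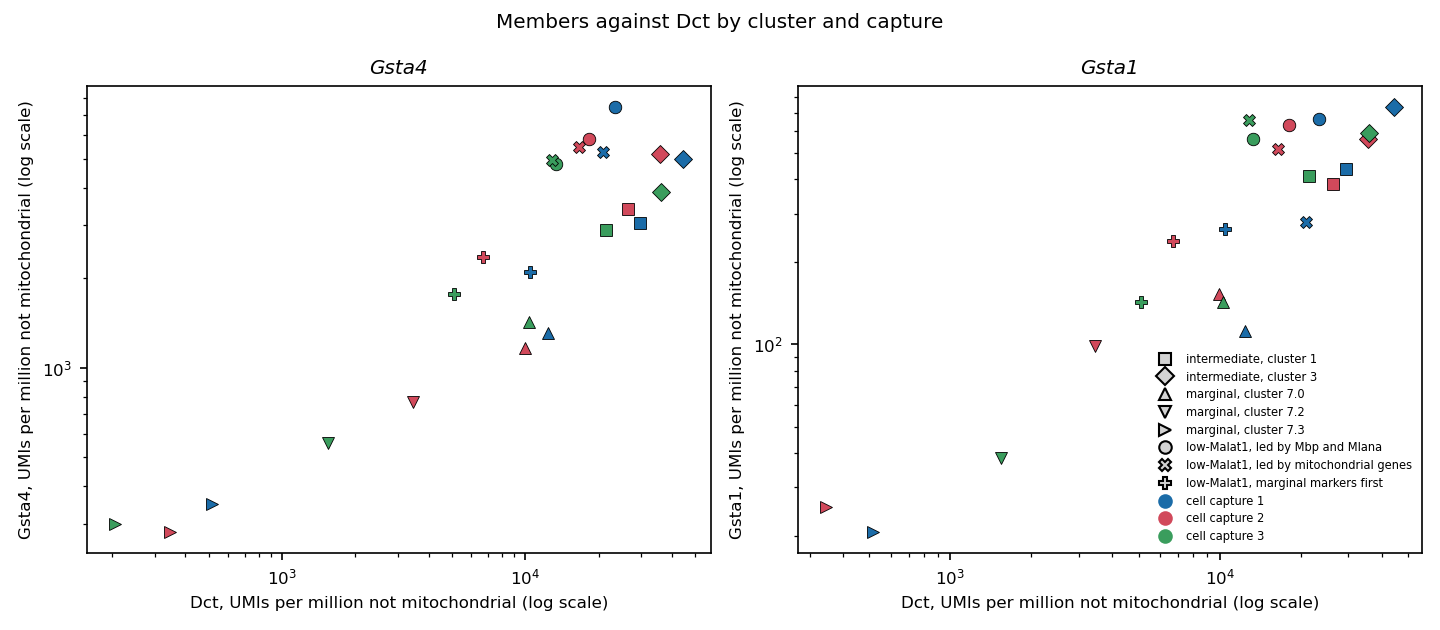
Gsta4 (left) and Gsta1 (right) against Dct, both in non-mitochondrial CPM on log axes, for clusters of intermediate, marginal and low-Malat1 barcodes. Each point is a cluster in 1 capture, colour gives the capture and shape the cluster, and the capture in which the last marginal cluster had no UMI of Gsta1 is not drawn. Marginal clusters run from the lower left upwards, and 2 of the 3 low-Malat1 clusters hold at least as much Gsta4 as the first intermediate cluster at less Dct.

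Barcodes low in Malat1 held more of each alpha gene than basal and marginal cells in every capture, and, over all their clusters, less Gsta1 and Gsta2 than intermediate cells. Gsta4 stood at 2228, 1799 and 1350 CPM in these barcodes of captures 1, 2 and 3, below the intermediate cells of the same capture each time, but at 4407, 4046 and 3309 against 3776, 4175 and 3174 in non-mitochondrial CPM. On the second scale captures 1 and 3 were thus higher and capture 2 lower than intermediate cells, and the ranges overlapped on both scales. Gsta1 stood at 225, 189 and 154 CPM and Gsta2 at 179, 151 and 124 CPM, below every intermediate capture on both scales. The log2 fold of low-Malat1 barcodes against intermediate cells was 0.22 (SE 0.11) for Gsta4, -0.09 (SE 0.10) for Gsta1, -0.20 (SE 0.11) for Gsta2 and 0.10 (SE 0.17) for Gstp1, all near the median of all genes at -0.01. Without scaling for composition, where that median is -0.74, the values were -0.48, -0.80, -0.92 and -0.59. Mgst3 and Gstm5 had values of 0.53 (SE 0.18) and 0.61 (SE 0.16), which were -0.21 and -0.11 without the scaling. With the low-Malat1 barcodes of blood clusters added, Mgst3 had 1.92.

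The low-Malat1 barcodes were not alike. One cluster, 653 barcodes, was led by Mbp, Mobp, Gng13 and Mlana. Its best-scoring marker classes were neuron and Schwann cell, with 0 raised markers in each, and it stayed unnamed. In this cluster Gsta4 averaged 2776 CPM ± 954 (SD, n = 3) and 6039 ± 1331 in non-mitochondrial CPM. In the cluster led by mitochondrial genes, 437 barcodes with 75.4 to 77.1% mitochondrial UMIs, it averaged 1250 CPM ± 51.7 and 5238 ± 274 on the second scale. In the cluster with marginal markers first, 351 barcodes, it averaged 1056 CPM ± 147 and 2074 ± 292. The first and second thus did not differ beyond their spread once mitochondrial UMIs were set aside, and the third was below both. Gsta1 and Gsta2 averaged 619 ± 53.8 and 532 ± 42.2 non-mitochondrial CPM in the first cluster, above the 491 ± 48.6 and 424 ± 35.5 of all intermediate cells, although in CPM they averaged 282 and 242 against 325 and 281. In the cluster with marginal markers first they averaged 215 ± 64.0 and 154 ± 33.9 non-mitochondrial CPM. Intermediate cells themselves formed clusters of this kind. Those with 16.5 to 17.7% mitochondrial UMIs, 397 cells, had Gsta4 at 3901 CPM ± 621 and Gsta2 at 499 CPM ± 75.6, and those with 38.0 to 42.3%, 508 cells, had 1850 CPM ± 162 and 192 CPM ± 6.44. On the second scale the values were 4695 ± 717 and 3119 ± 259 for Gsta4, and 600.3 ± 88.0 and 324 ± 4.31 for Gsta2.

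Across the range of Malat1, Gsta4 was lower in the middle than at either end. Barcodes of the 3 captures outside blood were taken, with the low-Malat1 ones of an unnamed myeloid cluster left in. Gsta4 stood at 4096 non-mitochondrial CPM where Malat1 was under 0.05% of UMIs (1225 barcodes), at 2239 between 0.9 and 2% (311 barcodes) and at 3863 at 10% or more (303 barcodes). Gsta1 stood at 424, 254 and 521 in the same bins. Just inside the limit, from 0.5 to 0.7%, 43 barcodes had Gsta4 at 1974, and just outside it, from 0.7 to 0.9%, 47 barcodes had 2204. The mix of types differed between the bins, and its part was not tested.

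**Figure D3:**
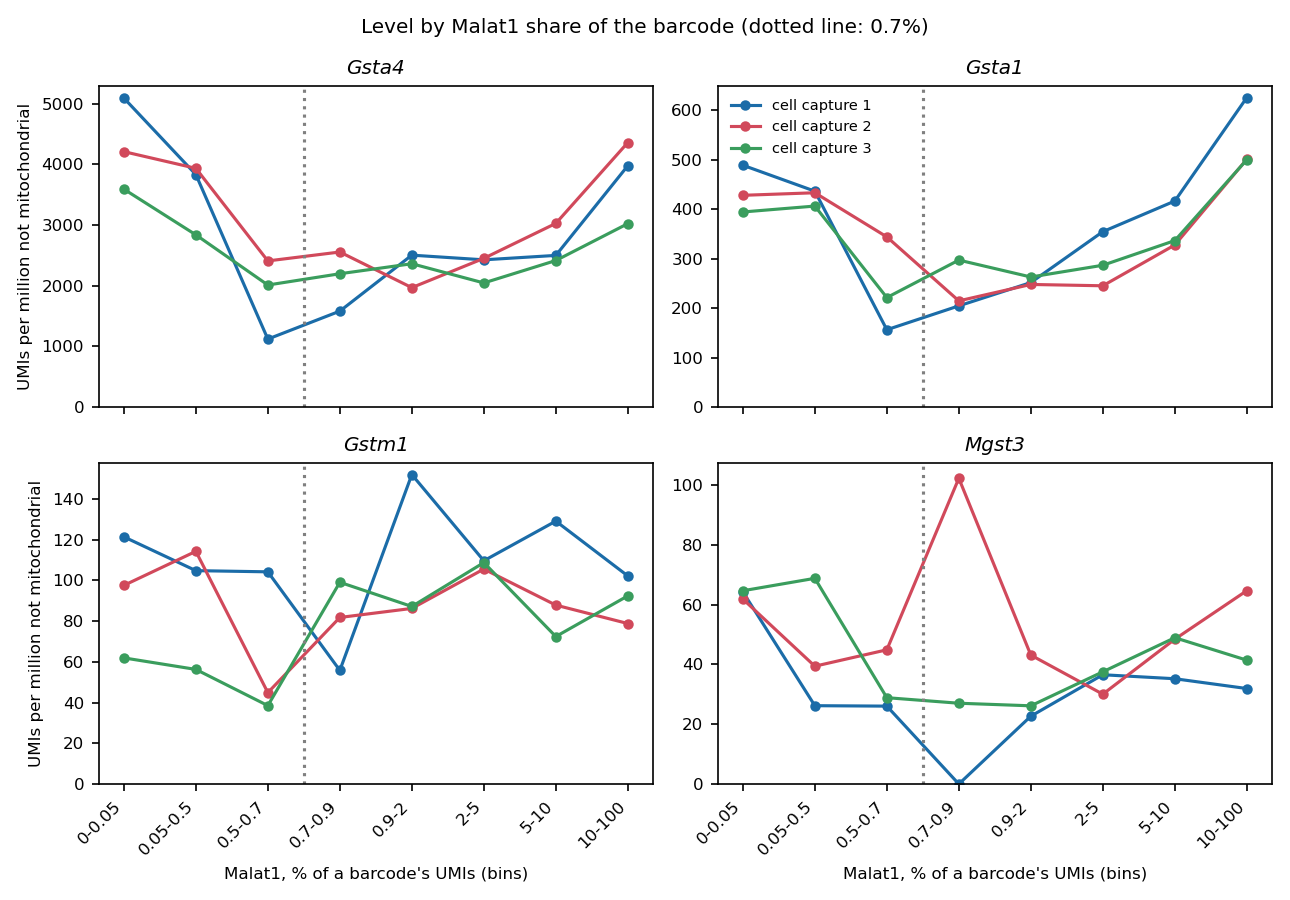
Gsta4, Gsta1, Gstm1 and Mgst3 in non-mitochondrial CPM (vertical axes, linear from 0) by the share of Malat1 in the barcode (8 bins), with a line for each cell capture. The dotted line is the limit of 0.7%. Gsta4 and Gsta1 are high at both ends in each capture, and the bins beside the limit hold 43 and 47 barcodes in all.

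A UMI of Gsta4 was present in 87.6% of 905 intermediate cells after thinning to 1000 UMIs (exact 95% interval 85.3 to 89.7%) and in 72.9% of 1541 low-Malat1 barcodes (70.6 to 75.1%). The share was 13% of 100 erythroid cells (7.11 to 21.2%) and 8 of 45 B cells, 17.8%. Unthinned shares were 99.8%, 93.4%, 66% and 53.3%, at median depths of 6017, 3046, 10126 and 3758 UMIs. Thinning was on all UMIs, of which mitochondrial RNA made up 34.4% in intermediate cells and 56.2% in low-Malat1 barcodes. In non-mitochondrial CPM Gsta4 averaged 3708 in the former and 3921 in the latter. The part of mitochondrial RNA in the lower share of low-Malat1 barcodes was not tested. Erythroid and B cells are given for comparison and are not shown here to lack Gsta4.

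In intermediate and low-Malat1 barcodes, cells and nuclei gave different shares of Gsta1 and Gsta2. Of the UMIs of both genes, Gsta1 took 54.3%, 52.3% and 54.3% in intermediate cells of captures 1, 2 and 3, and 35.9% in intermediate nuclei (exact 95% interval 32.7 to 39.1%). It took 55.8%, 55.5% and 55.5% in low-Malat1 barcodes of cells and 39.5% (37.4 to 41.7%) in those of nuclei. In these 2 groups cells were above the nuclear interval each time, and so were marginal cells. Basal cells took 66.7%, 52.2% and 44.7% in captures 1, 2 and 3, the last within the interval of basal nuclei (34.8 to 49.2%). B cells and the spindle/root cells of capture 2, on few UMIs, also lay within the intervals of their nuclei. The gene lists used for counting differed between cells and nuclei, and with windows shared between the genes this cannot be told apart from a difference in the RNA.

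In non-mitochondrial CPM, Gsta4 stood at 3776, 4175 and 3174 in intermediate cells and at 1873 (1817 to 1930) in intermediate nuclei, so that the mean of cells was 1.98 times that of nuclei. Over 8235 genes of both lists, with the captures of cells pooled, the median ratio was 1.07, and Gsta4 with 1.95 lay above 78.2% of them. Gsta1 was 3.60 times and Gsta2 1.74 times as high in cells. Basal cells went the other way, with Gsta4 at 1420, 1295 and 1168 in cells and 1899 (1799 to 2003) in nuclei, a ratio of 0.682. Gstm1 was higher in cells in each type, by 4.60 times in intermediate, 4.19 times in basal and 3.77 times in marginal cells. Gstp1 stood at 167, 43.4 and 47.1 in intermediate cells of captures 1, 2 and 3 and at 3.92 (1.79 to 7.43) in intermediate nuclei, on 9 UMIs, so the size of the ratio depends on capture 1. The shared sequence with Gstp2 and its pseudogene applies here. In the low-Malat1 barcodes Gsta4 stood at 5133 (5053 to 5215) in the nucleus capture, above all 3 cell captures. The difference between captures of cells and the single capture of nuclei has no replicate check on the side of nuclei.

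**Figure D4:**
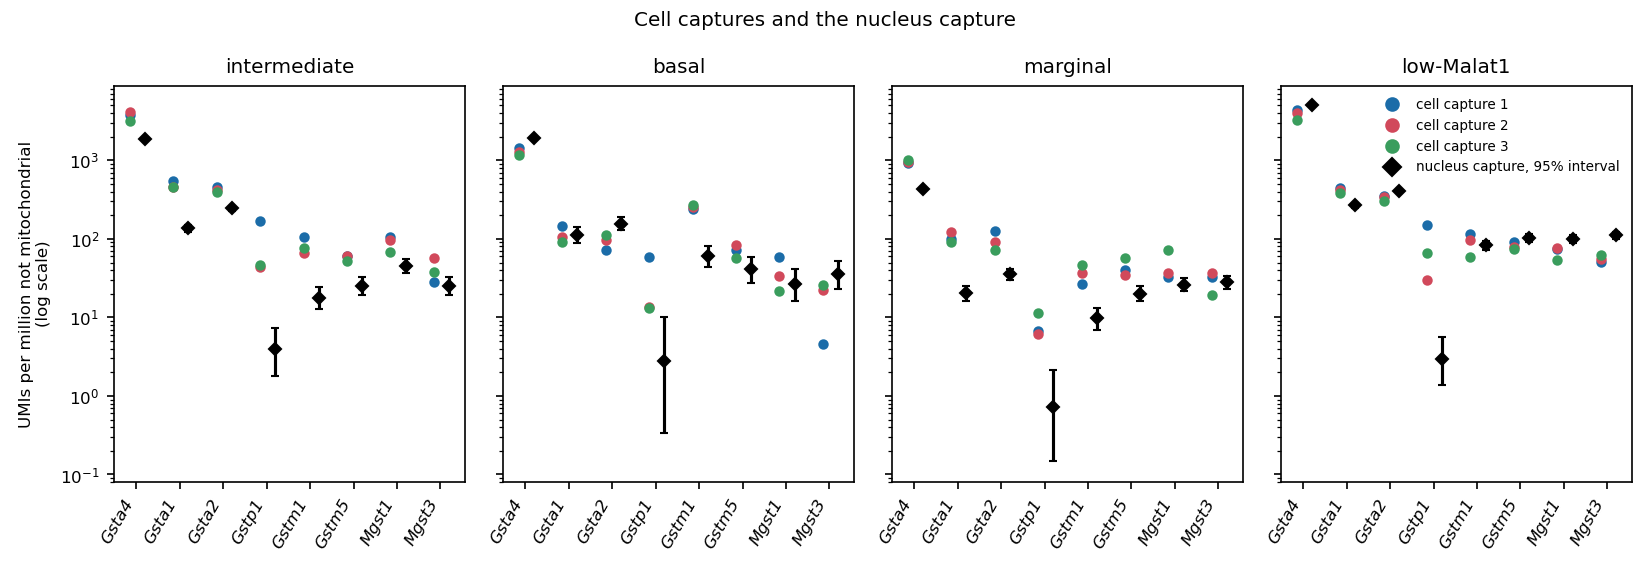
Members in intermediate, basal, marginal and low-Malat1 barcodes in non-mitochondrial CPM, on a log axis. Coloured points are the cell captures and black diamonds the nucleus capture with its exact 95% Poisson interval. Gsta4 lies above the nuclei in intermediate and marginal cells and below them in basal cells and low-Malat1 barcodes, and Gstp1 is lower in nuclei in all 4.

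The genes most like each member were taken over the 14 sums of types and captures in the cell data, by Pearson's r of log2 (CPM + 10) among 8104 genes with at least 100 UMIs. The sums share captures, depth and RNA of neighbouring types, so r is a description. Gsta1 and Gsta4 were most like each other or nearly so (r = 0.98), and Gsta2 and Gsta1 had r = 0.95. Beside the family, Gsta4 and Gsta1 were closest to Stmn3 (r = 0.98 and 0.97), and Gsta2 to Nol3 (r = 0.96) and to Mlana (r = 0.94), a melanosome gene. Gstm1 was closest to Sptbn1 (r = 0.96), Gstm5 to Mvk (r = 0.96) and Mgst1 to Rab15 (r = 0.95). No gene came nearer to Gstp1 than Gm10116 (r = 0.84) or to Mgst3 than Dhps (r = 0.71). Gsta4 and Gstm1 had r = 0.10.

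Other genes of glutathione chemistry were taken in 3 lists, of other transferases and relatives, of glutathione supply and use, and of the Nrf2 pathway. No list gene is a member, but the lists were chosen with earlier results of these data known, so their p-values are not independent evidence. In the comparison of intermediate cells with the mean of marginal, basal and spindle/root cells, 17.0% of 8479 genes were called higher and 16.8% lower by edgeR's quasi-likelihood test at an adjusted p under 0.05, that is 1440 and 1422 genes, which became 778 and 2491 without scaling for composition. Of 27 other transferases 11 passed the filter on low counts, and 0 were higher and 5 lower in intermediate cells, with a median log2 fold of -0.30 against 0.02 over all genes. At an unadjusted p under 0.05 the counts in edgeR were also 0 and 5, and DESeq2 called 0 and 5. Ptges, a prostaglandin E synthase of the membrane family, was lower by 2.49 on the log2 scale (adjusted p = 0.000205), with 35.6 CPM in marginal and 2.05 CPM in intermediate cells. Its mean in basal cells was 4.29 CPM ± 4.79, near the 2.05 CPM ± 1.77 of intermediate cells, and spindle/root cells had 18.8 CPM. These 3 values rest on 5, 11 and 5 UMIs. Gstm2, a mu class transferase, fell by 2.38 (adjusted p = 7.79e-11), from 44.9 CPM in marginal and 42.5 CPM in basal to 6.0 CPM in intermediate cells. Gstt1, of the theta class, fell by 0.98 (adjusted p = 0.0171).

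Of 33 genes of glutathione supply and use, 22 passed the filter, 4 higher and 6 lower, with a median of -0.30, and DESeq2 called 2 higher and 4 lower. Slc3a2, the heavy chain of the cystine transporter, was higher by 0.95 (adjusted p = 2.91e-06) over the mean of the types, although basal cells had 84.8 CPM and intermediate cells 75.1 CPM. Abcc5, an export pump, was higher by 0.85 (adjusted p = 2.34e-05) and Glrx, a glutaredoxin, by 0.60 (adjusted p = 0.0276). In CPM, Abcc5 stood at 60.7 in intermediate and 61.8 in spindle/root cells, and Glrx at 44.8 in intermediate and 49.9 in marginal cells. Gclc, the catalytic subunit of the first enzyme of glutathione synthesis, fell by 1.07 (adjusted p = 8.83e-05), and stood at 83.8 CPM in marginal and 19.1 CPM in intermediate cells. Ggct fell by 1.27 (adjusted p = 0.0250) and Glrx5, a mitochondrial glutaredoxin, by 0.99 (adjusted p = 3.36e-12). Of 22 genes of the Nrf2 pathway 19 passed, 7 higher and 2 lower, with a median of 0.13, and DESeq2 called 6 and 2. Hmox1, which degrades haem, was higher by 1.80 (adjusted p = 9.71e-06), Fth1, the ferritin heavy chain, by 1.48 (adjusted p = 3.39e-23) and Txn1, thioredoxin, by 1.15 (adjusted p = 3.82e-21), although Txn1 stood at 359 CPM in spindle/root and 347 CPM in intermediate cells. Hmox1 varied between captures, with 33.7 CPM ± 20.2 in intermediate and 20.6 CPM ± 15.7 in basal cells, and had 3 UMIs in spindle/root cells of captures 2 and 3. Ephx1, the microsomal epoxide hydrolase, fell by 3.13 (adjusted p = 4.56e-23) and Taldo1, of the pentose phosphate pathway, by 0.93 (adjusted p = 1.70e-06). Without scaling for composition 7 of the 11 higher genes of the 3 lists and all 13 lower genes kept their call, and Glrx was among those that lost it.

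In the comparison of low-Malat1 barcodes with intermediate cells, 26.1% of the 8479 genes were called higher and 23.9% lower, 2210 and 2027 genes, which became 776 and 5313 without scaling for composition. Among the other transferases 6 were higher and 0 lower in edgeR, 6 and 0 at an unadjusted p under 0.05, and 5 and 0 in DESeq2. Gstm2 had a log2 fold of 2.63 (adjusted p = 1.30e-18), Ptges of 2.36 (adjusted p = 2.24e-05) and Eef1g, a translation factor with a transferase domain, of 1.13 (adjusted p = 4.05e-20). Gstm2, Ptges and Ggct, which was higher by 2.40 (adjusted p = 3.62e-11), had higher means in marginal than in intermediate cells, at 44.9 against 6.0 CPM, 35.6 against 2.05 CPM and 29.3 against 4.61 CPM, and 351 of the low-Malat1 barcodes lay in the cluster with marginal markers first. The part of marginal RNA in these calls was not tested. In the supply list 9 were higher, Glrx5 by 1.45 (adjusted p = 4.18e-26) and Me1, malic enzyme, by 1.08 (adjusted p = 3.54e-14) among them, and 3 were lower, Slc3a2 by 1.63 (adjusted p = 2.67e-16), Abcc5 by 1.37 (adjusted p = 1.52e-11) and Idh1 by 0.55 (adjusted p = 0.0125). DESeq2 called 5 higher and 2 lower in the supply list, and 4 and 5 in the Nrf2 list. In the Nrf2 list 5 were higher, led by Mafk at 1.59 (adjusted p = 2.47e-06), Ephx1 at 1.24 (adjusted p = 0.000128) and Nfe2l1 at 1.14 (adjusted p = 6.02e-20). The other 5 were lower, with Hmox1 at -1.71 (adjusted p = 2.20e-06), Mafg at -1.13 (adjusted p = 1.91e-08) and Nfe2l2, which encodes Nrf2, at -0.95 (adjusted p = 3.24e-06). Without scaling for composition 16 of the 20 genes called higher over the 3 lists kept their sign and 9 their call, Ephx1 losing its call, while all 8 lower genes kept both. Within the 39 low-Malat1 barcodes of the clusters named intermediate, no list gene was called higher and 1 was called lower. These barcodes were 9, 13 and 17 per capture, and few genes were called there at all, 17 higher and 50 lower of 5825. The list counts there therefore cannot show that differences are absent. At an unadjusted p under 0.05 in edgeR, 2 of the 44 list genes fitted there were higher and 5 lower, beside 605 of all genes. DESeq2 was not run on those barcodes.

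**Figure D5:**
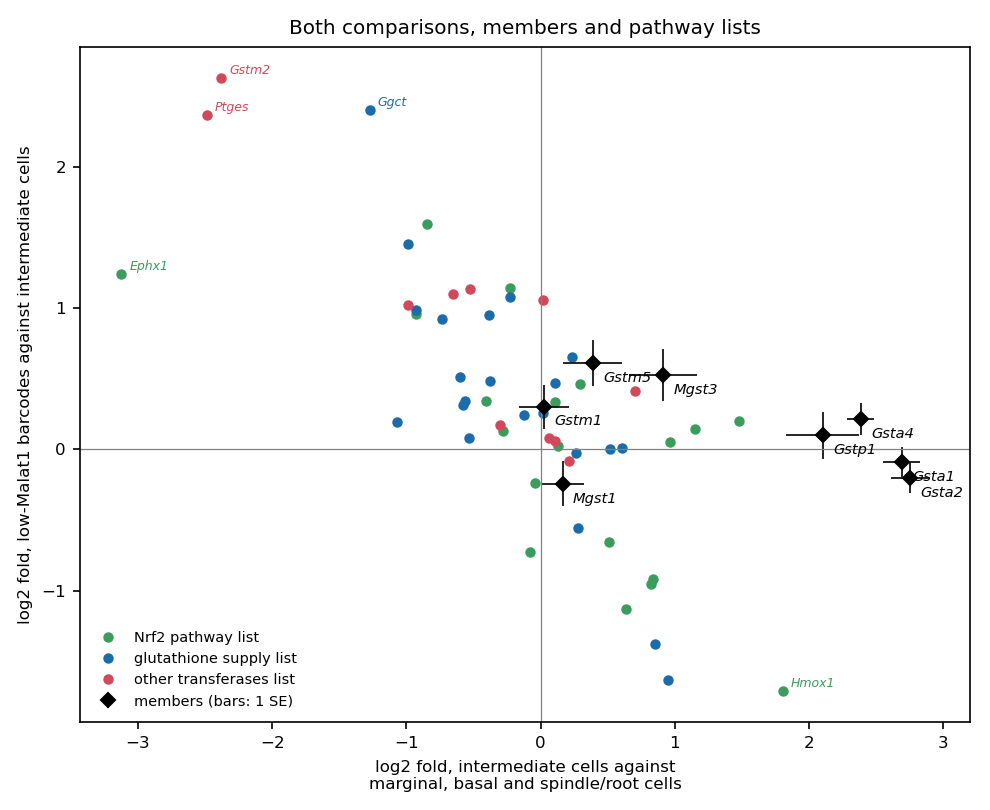
Log2 fold of intermediate cells against the mean of marginal, basal and spindle/root cells (horizontal) and of low-Malat1 barcodes against intermediate cells (vertical), edgeR with scaling for composition. Black diamonds are the 8 members that passed the filter on low counts with bars of 1 SE, and coloured points the genes of the 3 lists; both comparisons share the intermediate cells. The alpha genes and Gstp1 lie at the right near 0 on the vertical axis, Gstm2, Ptges and Ephx1 at the upper left and Hmox1 at the lower right.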

How the data were processed

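The sample labels describe 3 captures of cells and 1 of nuclei from P30 SV. The authors made the libraries on the 10x Genomics Chromium system and deposited each capture's unnormalised UMI counts by gene and by barcode, before aggregation. The submitters' processing notes name Cell Ranger 2.0.0 and mm10, and 27873 gene identifiers occur in both gene lists. The 9 members, the lists and the tests were chosen with earlier results of these data known.

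Barcodes with under 200 genes were left out, and the barcodes with the highest Scrublet doublet scores (scanpy 1.11.5) were removed, 0.8% for each 1000 barcodes of a capture, which came to 1, 15 and 20 in cells and 978 in nuclei. Seurat 5.3.0 clustered cells and nuclei apart with 2000 variable genes, without family genes, on 32 and 33 components at a resolution of 0.8. Mixed clusters were divided again on 10 components, a step set after clusters were seen. A cluster was named with at least 3 raised markers (in 10% of barcodes, 2 times the rest) if the second class stayed under 0.67 of the first. Clusters with over 50% low-Malat1 barcodes stayed unnamed unless blood.

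UMIs were summed per type and capture with at least 5 barcodes (14 sums) and fitted in edgeR 4.0.16 (TMM, filterByExpr, robust quasi-likelihood, capture as block, Benjamini-Hochberg). Sums of a capture come from 1 suspension. Over 2782 genes, deviations from type means correlated by 0.00387 to 0.375 in 26 pairs from the same capture. Captures are the only replicates, and nothing in the labels says which animals each pooled. On simulated sums of the comparison of intermediate cells, 74 of 90 genes with a 4-fold change and 52 of 110 with a 2-fold change were called among 8479, beside 9 false calls. The simulation gave all types the same profile, a fixed spread between sums and no capture effect. It also changed far fewer genes than were called in the real fit, so its rates are not the error rates of that fit. List genes named are those called with the 3 largest log2 folds in each direction. Alternatives included DESeq2 1.42.0, other limits and resolutions, and each capture left out. The split of low-Malat1 and intermediate barcodes by cluster, and the fit without the mitochondrial cluster, were added after seeing the data. UMIs count 3′ ends and were not divided by gene length.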

Additional observations from a re-analysis of the deposited data

Results flagged for a closer look

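The ratio of cells to nuclei went opposite ways in different groups of barcodes for 4 members, in every cell capture and on both scales. UMIs that are not mitochondrial are the base below. Among marginal, intermediate and basal barcodes this held for Gsta2 and Gsta4. For Gstm5 only the low-Malat1 barcodes, which were held apart from the types, went the other way from these types. For Mgst1 they went the other way from marginal and intermediate barcodes, and basal cells lay on both sides of basal nuclei. The nucleus side is a single capture and the difference between groups was not tested. How many of all genes go opposite ways like this was not counted, so the 4 members are not set against a background. Over genes with at least 20 UMIs in both kinds, captures of cells pooled, the median ratio was 1.32 in marginal barcodes. It was 1.07 in intermediate and 1.11 in basal barcodes, and was not taken for low-Malat1 barcodes. Gsta4 had a ratio of 1.98 in intermediate and 2.21 in marginal barcodes, and of 0.682 in basal and 0.764 in low-Malat1 barcodes. Gsta2 had 1.74 and 2.73 in the first pair and 0.602 and 0.812 in the second. Gstm5 had 2.30 in intermediate, 2.19 in marginal and 1.73 in basal barcodes, and 0.792 in low-Malat1 barcodes. Mgst1 had 2.00 in intermediate, 1.82 in marginal and 0.688 in low-Malat1 barcodes. In basal barcodes its ratio was 1.42, with captures from 21.8 to 59.0 in cells and 26.8 (16.1 to 41.8) in nuclei. In CPM the lowest captures of marginal and intermediate cells, at 25.1 and 42.9, lay within the intervals of their nuclei.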

How the results depend on the processing

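Of the counts of genes called under other settings, 138 stayed within 1.5 times the main count and 14 did not. Of the other values, 394 moved by less than the spread between captures or the counting interval and 111 moved by more. Without TMM scaling, intermediate cells had 778 genes higher and 2491 lower in place of 1440 and 1422, low-Malat1 barcodes 776 and 5313 in place of 2210 and 2027, and the list genes 7 and 21 in place of 11 and 13, and 9 and 26 in place of 20 and 8. With only the 39 low-Malat1 barcodes of intermediate clusters there were 17 higher and 50 lower, and 0 and 1 list genes. DESeq2 called 998 higher and 1366 lower, and 1674 and 1356. With each capture left out in turn, the counts were 969 to 1295 higher and 829 to 1337 lower for intermediate cells, 1576 to 2068 and 1354 to 1843 for low-Malat1 barcodes, and for list genes 9 to 10 and 7 to 11, and 16 to 19 and 7 to 8. The count of 829 came without capture 2 and that of 7 lower list genes without capture 3. Where a capture was left out, spindle/root cells could have 1 sum, assumed to vary like the others. Without the replicate block there were 1320 higher and 1330 lower, and 2009 and 1829. The log2 fold of Gsta1 for intermediate cells was 3.40 without capture 2. Leaving out capture 1 brought Gstp1 in intermediate cells from 57.8 to 29.4 CPM. No paired analysis was possible because, for the cell to nucleus ratios, both kinds share 1 replicate number and came from separate suspensions. Naming rests on markers, nuclei on 1 capture, and types with under 40 cells (spindle/root, fibrocytes) on few UMIs. The cause of the shifts was not tested.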
